A study of Mus musculus with 30 samples.

Results

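Sox10, Egr2, Mbp, Pmp22, Mag, Prx, Ncam1 and S100b, 8 genes widely used as markers of Schwann cells and myelin, were followed by symbol through count tables of 50686 genes from mouse thyroid. The gene symbols were matched to the Ensembl identifiers of the tables, and all 8 genes were found and passed the filter on low counts in each of the 3 fits. Poly(A) RNA of C57BL/6 thyroids was sequenced in 30 libraries, 3 in each of 10 groups. Of these, 8 groups crossed the FAD4T genotype and wild type with males and females and with ages of 2 and 8 months. An ageing pair was added in males alone, with wild types of 18 months and a further set of 2 months whose titles carry the numbers 4 to 6. The 2-month wild-type males numbered 1 to 3 were taken as the partners of the FAD4T males, and those numbered 4 to 6 as the partners of the 18-month males, because the series' design lists the ageing pair apart from the rest. The labels give the genotype by the name FAD4T alone and do not say whether each library came from its own animal, so p-values measure the spread between these libraries, which may be technical.

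Schwann cells are the glia of peripheral nerves, and in myelinating fibres each one wraps a single stretch of axon in compact membrane. SOX10 is the transcription factor that defines the lineage, and with it EGR2 switches on the genes of myelin. MBP and PMP22 are structural proteins of compact myelin, MAG sits in the membrane that faces the axon, and periaxin, the product of Prx, links the outer membrane of the Schwann cell to its basal lamina. NCAM1 is an adhesion molecule kept by non-myelinating Schwann cells, and S100B is a calcium-binding protein used to stain all Schwann cells. The thyroid is supplied by autonomic nerve fibres that run with its vessels and between its follicles. Several of these genes are not private to glia: Pmp22 is expressed in many epithelia, Mbp has transcripts in immune cells, Egr2 is induced in lymphocytes, Ncam1 is expressed in neurons, endocrine cells and muscle, and S100b is expressed in fat cells and other non-glial cells. In whole tissue, a lower level from fewer cells of a type and one from less RNA per cell cannot be told apart.

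The sequences just before the start of transcription are shown for the regulator Egr2 and for the myelin genes Mag and Prx. The text compares the levels of Mag and Prx with those of the regulators. Entries of the RefSeq promoter table (GRCm38.p6) were used for 5 of the 8 genes, namely Egr2, Pmp22, Mag, Prx and S100b. Each window is the 250 bases before the RefSeq start that lies nearest to the start of the counted gene model, printed on the strand of the gene. Egr2 lies on the plus strand at chr10:67535249-67535498, Mag on the minus strand at chr7:30914864-30915113, and Prx on the plus strand at chr7:27499074-27499323. Capitals mark matches to the core letters bound by SOX factors (ACAAAG or ACAATG) or by EGR factors (GCGTGGG), searched on both strands.
Egr2: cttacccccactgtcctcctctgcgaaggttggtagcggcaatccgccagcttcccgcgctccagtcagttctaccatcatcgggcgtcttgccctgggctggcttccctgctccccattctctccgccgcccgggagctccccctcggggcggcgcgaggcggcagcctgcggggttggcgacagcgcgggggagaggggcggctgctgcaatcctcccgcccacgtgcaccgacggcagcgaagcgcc
Mag: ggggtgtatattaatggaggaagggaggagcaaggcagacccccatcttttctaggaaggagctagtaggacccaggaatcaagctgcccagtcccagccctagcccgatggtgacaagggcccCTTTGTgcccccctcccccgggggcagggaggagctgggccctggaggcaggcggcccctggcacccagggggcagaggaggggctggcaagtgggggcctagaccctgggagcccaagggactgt
Prx: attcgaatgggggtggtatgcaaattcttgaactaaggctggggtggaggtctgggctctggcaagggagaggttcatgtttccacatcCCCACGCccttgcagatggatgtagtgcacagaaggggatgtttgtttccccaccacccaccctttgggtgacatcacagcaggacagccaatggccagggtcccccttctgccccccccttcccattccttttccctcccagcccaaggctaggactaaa
The Mag window held ACAAAG, read on the opposite strand, with its first base 126 bases before the start. The Prx window held GCGTGGG, also on the opposite strand, with its first base 161 bases before the start. The Egr2, Pmp22 and S100b windows held none of the 3 motifs. These letters are common: of 32851 windows of the same length, 16.5% held ACAAAG, 10.7% held ACAATG and 4.3% held GCGTGGG. The matches did not overlap one another, and a match is a description of the letters only.

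The libraries held 14083958 to 20256049 counts each, and 0 pairs of libraries were identical. The 7 genes of the thyroid follicle list, among them Tg, Slc5a5, Tshr and Pax8, summed to between 39800 and 310000 CPM (counts scaled to the TMM-adjusted library total) in every library, with none of its genes at 0. Genes of neighbouring tissues varied widely between libraries of the same group, in particular skeletal muscle, thymocyte, liver and fat genes, and 5 FAD4T libraries carried the highest thymocyte levels: numbers 2 and 3 of the 2-month males, 1 and 2 of the 2-month females and 1 of the 8-month males. Oligodendrocyte genes were at or near the limit of counting: Mog reached 0.514 CPM at most and was at 0 in 15 libraries, and Opalin was at 0 in 29. Of the melanocyte genes, which share Sox10 with glia, Tyr was at 0 in 27 libraries, Tyrp1 in 23, Mlana in 8 and Dct in 2, and Dct reached 1.1 CPM at most. Pmel, a pigment granule protein, was at 0 in no library and ran from 1.33 to 4.24 CPM (median 2.43), and Mitf, which other cells express too, was between 8.94 and 19.3 CPM. The part of melanocytes in the Sox10 counts was not tested. These whole-tissue values bear on the 8 genes only where they are given beside a result.

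The 8 genes spanned a wide range of level. To compare genes, CPM was divided by the length of counted exon in kilobases. On that scale Pmp22 (Ensembl ENSMUSG00000018217, 11:63128982-63159547, plus strand) had a median level over the 30 libraries of 58.2 and S100b (ENSMUSG00000033208, 10:76253853-76261159, plus) of 46.3. Mbp (ENSMUSG00000041607, 18:82475146-82585637, plus) stood at a median of 6.13, Prx (ENSMUSG00000053198, 7:27499324-27520214, plus) at 1.64 and Sox10 (ENSMUSG00000033006, 15:79154913-79164490, minus) at 0.995. Ncam1 (ENSMUSG00000039542, 9:49502136-49798925, minus) followed at 0.854, Mag (ENSMUSG00000036634, 7:30899176-30914873, minus) at 0.424 and Egr2 (ENSMUSG00000037868, 10:67535475-67542188, plus) at 0.407. All positions are those of GRCm38 in the files. Prx shares 300 exon bases (5.4%) with the antisense gene Gm15541, and Ncam1 shares 417 (4.8%) with the antisense gene Gm11149, and the counting used no strand.

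**Figure D1:**
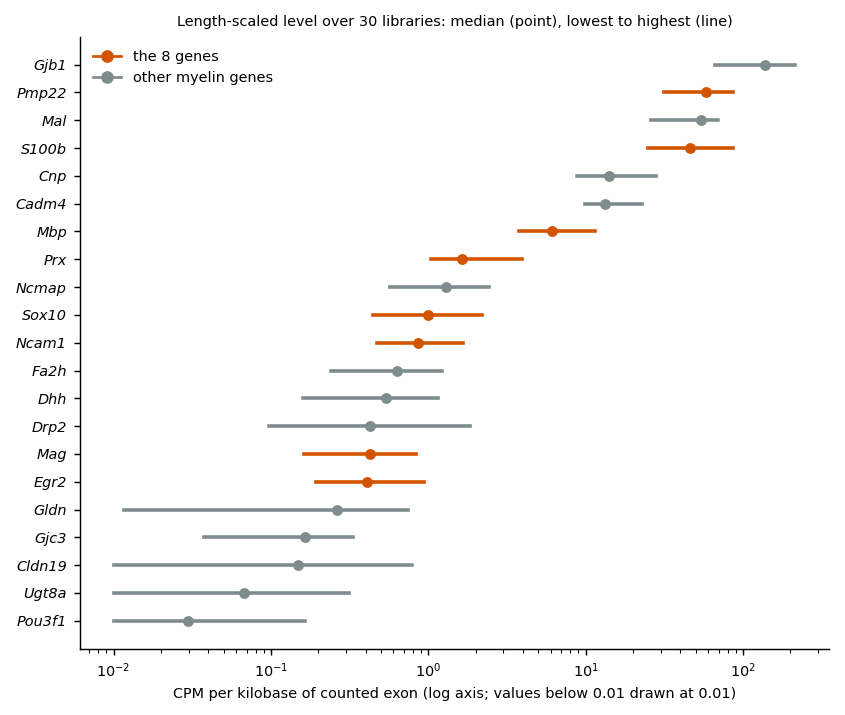
Level per kilobase of counted exon of the 8 genes (orange) and of other myelin genes (grey) over the 30 libraries, on a log axis: points are medians and lines run from the lowest to the highest library. Pmp22 and S100b sit at medians of 58.2 and 46.3, near Mal at 53.7, and Mag and Egr2 sit at 0.424 and 0.407, near Drp2 at 0.427. Pmp2, at 0 in 20 libraries, and the genes of the list not reported here by name are not drawn.

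The label of a myelin set was checked against a list of 16 further genes of the myelinating Schwann cell, of which those described here are named. On the same scale per kilobase, Pmp22 and S100b stood near Mal (median 53.7) and below Gjb1 (138), and Cnp (14) and Cadm4 (13.2) stood between them and Mbp. These 4 genes are expressed in epithelia as well as in myelinating glia. Ncmap, a small membrane protein of myelinating Schwann cells, had a median of 1.3, Dhh, the signal that Schwann cells send to the nerve sheath, 0.541, and Drp2, the partner of periaxin, 0.427. These genes, with less known expression outside glia, stood close to Prx, Sox10, Mag and Egr2. Other genes of the list stood below Egr2 (0.407), the lowest of the 8. They were Gldn (0.262), Gjc3 (0.164), Cldn19 (0.149), Ugt8a (0.067), Pou3f1 (0.0297) and Pmp2. Pmp2, a fatty-acid-binding protein of peripheral myelin, was at 0 in 20 libraries and reached 0.273 CPM at most. Sox10, Prx and Mag were counted in every library, and which cells these counts come from was not tested. Pmp22 and S100b stood well above them per length, and the 8 genes are described one by one and not as the signal of one cell type.

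Precision differed with depth. Sox10 had 18 to 106 counts a library, Egr2 11 to 57 and Mag 9 to 56, so counting error alone was 14.8%, 20.9% and 18.4% of the level at their median counts. The mean spread within groups (coefficient of variation) was 32.5% for Sox10, 26.2% for Egr2 and 34.2% for Mag. For the deeper genes counting error was 2.08% (Pmp22) to 8.89% (Ncam1), and the spread within groups was 17.8% (Ncam1) to 21% (Prx). Between FAD4T and wild type in 1 sex and age, the standard error of a log2 difference was 0.38 to 0.51 for these 3 genes of low count and 0.22 to 0.29 for the other 5.

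**Figure D2:**
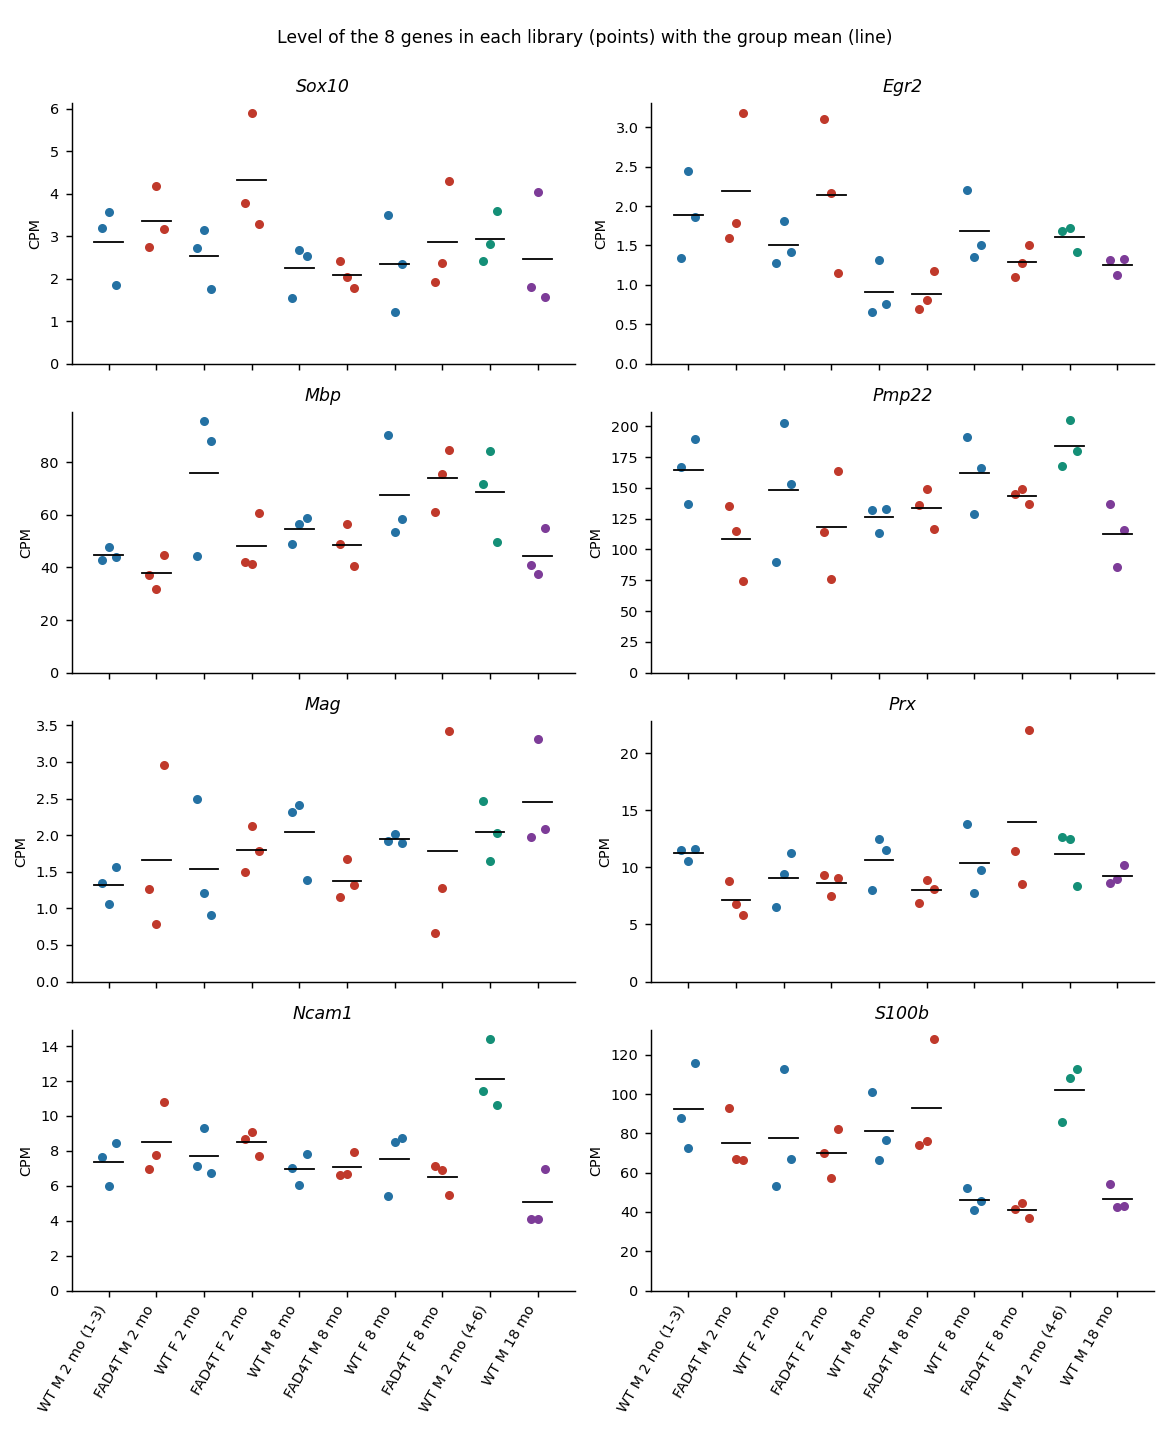
CPM of each of the 8 genes in each library (points) with the group mean (line), for the 10 groups along the horizontal axis (M male, F female, mo months, numbers in brackets are title numbers). S100b is low in the 8-month females of both genotypes and in the 18-month males, and Ncam1 is highest in the 2-month males numbered 4 to 6.

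Across the 10 groups, the regulator Sox10 ranged from 2.08 CPM ± 0.325 (SD, n = 3) in FAD4T males of 8 months to 4.32 ± 1.39 in FAD4T females of 2 months. No neighbouring groups in the order of Sox10 means had ranges that were apart. Egr2 ranged from 0.888 ± 0.247 in FAD4T males of 8 months to 2.19 ± 0.869 in FAD4T males of 2 months. The 2 lowest Egr2 means were the 8-month males of either genotype, and here too every neighbour in the order overlapped the next.

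Mbp was highest in wild-type females of 2 months (76.1 CPM ± 27.8) and lowest in FAD4T males of 2 months (37.9 ± 6.4). The high mean came with a wide spread, since the libraries of the wild-type females read 44.3, 95.9 and 88. Pmp22 was highest in the 2-month males numbered 4 to 6 (184 ± 18.8) and lowest in FAD4T males of 2 months (108 ± 30.8). Mag ran from 1.32 ± 0.258 in the 2-month males numbered 1 to 3 to 2.45 ± 0.749 in the 18-month males. Prx ran from 7.13 ± 1.51 in FAD4T males of 2 months to 14 ± 7.07 in FAD4T females of 8 months. In that last group Prx read 11.4, 8.57 and 22, so the highest group mean rested on the library numbered 3. Neighbouring groups in the order of each of these 4 genes overlapped.

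Ncam1 was highest in the 2-month males numbered 4 to 6 (12.1 CPM ± 2.02) and lowest in the 18-month males (5.04 ± 1.64), with the other 8 groups between 6.49 and 8.5. S100b was the one gene of the 8 with a gap between neighbours in its order. Its 3 lowest groups were FAD4T females of 8 months (40.9 ± 3.91), wild-type females of 8 months (46.2 ± 5.48) and males of 18 months (46.5 ± 6.51). The next group, FAD4T females of 2 months at 69.9 ± 12.5, had a range of 57.2 to 82.2 that lay above the 42.3 to 54.0 of the 18-month males. Among the 7 higher groups, which rose to 102 ± 14.5 in the 2-month males numbered 4 to 6, neighbours overlapped. The gap did not part the 3 lowest groups from all 7 higher ones. Wild-type females of 2 months, with a mean of 77.6, had a library at 53.0 CPM, within the range of the 18-month males.

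The 8 genes did not vary as one set from library to library. Each library was expressed as its difference from its group mean on the log2(CPM + 1) scale, and Pearson's r was taken over the 30 libraries as a description. The points share library composition and depth, and no p is given. Among the 28 pairs of the 8 genes, r ran from -0.50 (Pmp22 and Mag) to 0.66 (Pmp22 and S100b). Mbp varied with Prx (r = 0.59, 0.69 without the 2 most extreme libraries) and with Pmp22 (0.53, then 0.38). Sox10 and Egr2 had an r of 0.25 with each other (then 0.25). Sox10 had 0.30 with Mag (then 0.21), 0.23 with Prx (then 0.05) and 0.02 with Mbp (then -0.05). Egr2 had 0.21 with Mag (then -0.00) and 0.21 with Prx (then 0.20), the genes whose promoter windows are printed above.

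Set against the other myelin genes, 2 patterns could be described. Prx varied with Ncmap (r = 0.53, 0.60 without the 2 most extreme libraries). Against the mean level of the list of 16 myelin genes, r was 0.73 for Prx (then 0.57). For Mbp it was 0.46 (then 0.36) and for Mag 0.30 (then 0.07). Against the mean level of the endothelium list, r was 0.44 for Prx (then 0.55). It was 0.43 for Mbp (then 0.48) and -0.13 for Mag (then -0.16). The part of endothelium in the Prx counts was not tested. Sox10 varied with Dhh (0.64, then 0.52), as did Egr2 (0.51, then 0.47). Mag varied with Drp2 (0.54, then 0.25) and with Dhh (0.43, then 0.31). The library of FAD4T females of 8 months numbered 3 held the highest value of all 30 libraries in Prx (22 CPM), Mag (3.42), Drp2 (15.7) and Cldn19 (3.35).

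Pmp22 and S100b varied with genes that epithelia express as well as glia. Pmp22 had an r of 0.83 with Mal (0.74 without the 2 most extreme libraries), 0.73 with Gjb1 (0.62) and 0.71 with Cnp (0.70), but -0.10 with Ncmap and -0.31 with Drp2. S100b had 0.72 with Mal (0.67), 0.66 with Cnp (0.66) and -0.58 with Drp2. Against the mean level of the thyroid follicle list, r was 0.65 for Pmp22 (0.50), 0.62 for S100b (0.54), 0.50 for Mbp (0.31) and -0.40 for Mag (-0.34). Against the white adipocyte list, r was -0.54 for S100b and -0.52 for Pmp22. Whether follicle cells express these genes was not tested, since the libraries are whole tissue.

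**Figure D3:**
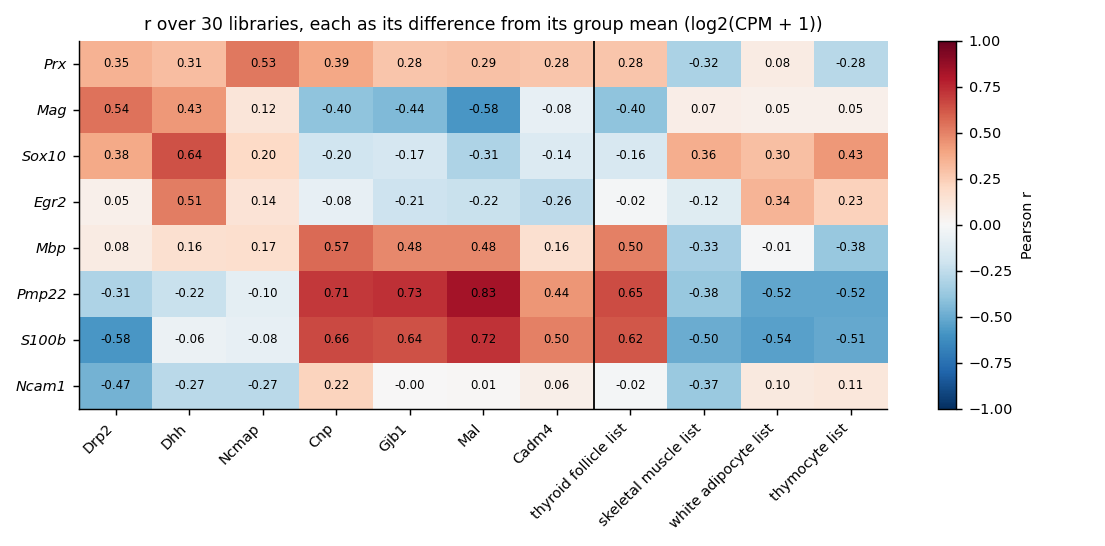
Pearson's r over 30 libraries, each taken as its difference from its group mean of log2(CPM + 1), between the 8 genes (rows) and 7 further myelin genes and the mean levels of 4 tissue lists (columns). Sox10 and Dhh stand at 0.64, and Pmp22 and S100b stand at 0.83 and 0.72 with Mal and at 0.65 and 0.62 with the thyroid follicle list.

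The genes whose pattern over the 30 libraries was most like that of each gene were taken from 13716 genes by Spearman's rho, with no statement on shared control. Pmp22 was most like Mall (0.88), which is in the same protein family as Mal, Tent5b (0.87) and Tor3a (0.86). S100b was most like Dpysl2 (0.83), Slc12a8 (0.82) and Gstt3 (0.81), and Mbp most like Dclre1b (0.81), Anxa6 (0.76) and Prelp (0.75). Ncam1 was most like Fcf1 (0.81), Sp3os (0.79) and Cracr2b (0.79), and Prx most like Grk5 (0.78), Pam (0.73) and Ing5 (0.70). The genes of lowest count had the weakest likeness: Egr2 with Slc4a11 (0.74), Traf4 (0.72) and Traf5 (0.69), Sox10 with Hip1 (0.70), Plxnb3 (0.68) and Ctla2a (0.68), and Mag with Stab2 (0.68), Mfsd6l (0.65) and Kcnn1 (0.65). None of these 24 genes was on the lists of myelin or Schwann lineage genes used here. Those lists held 16 and 12 genes, a very small number beside the 13716 searched. With lists this short, their absence cannot tell whether the genes follow other Schwann genes, and no conclusion is drawn from it.

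The first question of the design is how the FAD4T genotype changes the thyroid at each sex and age. None of the 8 genes passed the test (edgeR's quasi-likelihood test, Benjamini-Hochberg adjusted p under 0.05 over 18493 genes, "called" below) in males or females of 2 or 8 months, or in the mean over these 4 strata. The genome-wide share called was 0% in males and females of 2 months, 0% in males of 8 months, 0.0216% (4 genes) in females of 8 months and 0% in the mean. At an unadjusted p under 0.05, 2 of the 8 genes passed in males of 2 months and 1 in females of 2 months, against 14.5% and 16.7% of all genes. None of the 8 did in males of 8 months, females of 8 months or the mean, where 1.81%, 4.66% and 15.4% of all genes did. DESeq2 also called 0 of the 8 in each of these comparisons.

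In males of 2 months, the smallest p belonged to Prx. Prx read 8.77, 6.81 and 5.81 CPM in FAD4T males and 11.5, 10.6 and 11.6 in wild-type males, without overlap, a log2 difference of -0.65 (SE 0.29, adjusted p = 0.343). Pmp22 read 135, 115 and 74.3 CPM in FAD4T and 167, 137 and 190 in wild type, also without overlap, with a log2 difference of -0.61 (SE 0.28, adjusted p = 0.343). Groups that did not overlap were no rarity in this comparison, at 12.1% of 18799 genes, so 2 of 8 is read against that share. In the same FAD4T males, the thymocyte list was higher by a median log2 difference of 5.84 and the thyroid follicle list lower by a median of -0.21, with no gene of either called. Without the 5 libraries of highest thymocyte level, which leaves 1 FAD4T male of 2 months, the difference in Prx was -0.34 (SE 0.44), with the lone library assumed to vary like the other groups.

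In females of 2 months, Mbp had the smallest p. It read 42.1, 41.5 and 60.7 CPM in FAD4T females and 44.3, 95.9 and 88 in wild-type females, and the groups overlapped. The log2 difference was -0.66 (SE 0.25, adjusted p = 0.216). Leaving out the FAD4T female numbered 3 brought it to -0.88 (SE 0.27) and to a call, in a fit that called 3001 genes in all. Leaving out the 5 libraries of highest thymocyte level brought it to -0.30 (SE 0.36). That fit keeps only the FAD4T female numbered 3, the highest of its group in Mbp, assumed to vary like the other groups. Sox10 was higher in every FAD4T female of 2 months (3.78, 5.9 and 3.29 CPM) than in any wild-type one (2.73, 3.14 and 1.76), with a log2 difference of 0.76 (SE 0.39, adjusted p = 0.319). Groups did not overlap for 9.77% of genes in this comparison.

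At 8 months Prx again had the smallest p in either sex, with differences of opposite sign. FAD4T males read 6.92, 8.92 and 8.11 CPM against 7.99, 12.5 and 11.5 in wild-type males, a log2 difference of -0.40 (SE 0.29, adjusted p = 1). FAD4T females read 11.4, 8.57 and 22 against 13.8, 7.74 and 9.73, a difference of 0.43 (SE 0.29, adjusted p = 1) that was -0.06 (SE 0.27) without the FAD4T female numbered 3. The genotypes overlapped in all 8 genes at 8 months, whereas 10.8% of genes in males and 12.9% in females did not overlap. The difference between the sexes in the FAD4T effect on Prx was -0.83 (males minus females, SE 0.41, adjusted p = 1). None of the 8 genes was called in that interaction, in the same one at 2 months, or in the change of the FAD4T effect from 2 to 8 months in males or in females, where 0% of genes were called. The smallest of these interaction p-values for the 8 genes were those of Prx at 2 months (-0.57, SE 0.41), of Pmp22 between ages in males (0.72, SE 0.39) and of Mbp between ages in females (0.80, SE 0.35, adjusted p = 0.584).

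Over the 4 strata together, the mean log2 difference between FAD4T and wild type lay between -0.25 (Pmp22, SE 0.14) and 0.30 (Sox10, SE 0.19), with a median of -0.06 over the 8 genes and -0.01 over all genes. Mbp had the smallest p (-0.23, SE 0.12, adjusted p = 0.366). Among the wider myelin genes, 0 of 14 tested were called, 12 of them were lower in FAD4T and their median was -0.21. Of 12 Schwann lineage genes, such as Erbb3, the neuregulin receptor, and Cdh19, 0 were called and the median was -0.12.

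**Figure D4:**
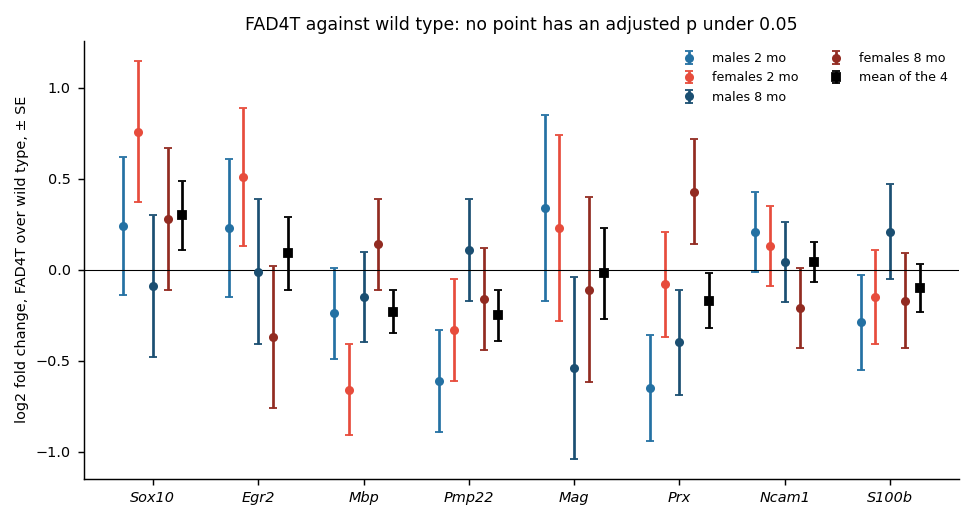
Log2 fold change of FAD4T over wild type for the 8 genes in each sex and age and in the mean of the 4 strata, with bars of 1 standard error. No point has an adjusted p under 0.05. Prx stands at -0.65 in males of 2 months and at 0.43 in females of 8 months.

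The second question is how the gland of an old male differs from that of a young one. Against the 2-month males numbered 4 to 6, 4 of the 8 genes fell by 18 months, namely S100b, Ncam1, Pmp22 and Mbp, and none rose. Of all 16283 genes tested, 35.9% were called in either direction and 18.8% were called lower, so 4 of 8 lower is read against a share of that size. The median log2 difference was -0.53 over the 8 genes and -0.01 over all genes.

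S100b read 54.0, 42.3 and 43.2 CPM at 18 months and 85.6, 108 and 113 at 2 months, a log2 difference of -1.17 (SE 0.15, adjusted p = 0.00138). Ncam1 read 4.1, 4.09 and 6.94 against 11.4, 14.4 and 10.6, a difference of -1.30 (SE 0.26, adjusted p = 0.00627). Pmp22 read 137, 85.5 and 116 against 168, 205 and 180, a difference of -0.75 (SE 0.18, adjusted p = 0.0117). In these 3 genes every old library lay below every young one, where 47.4% of all genes did not overlap. Egr2, given below, was the only other gene of the 8 without overlap. Mbp read 40.8, 37.5 and 55.0 against 71.8, 84.4 and 49.5, a difference of -0.66 (SE 0.22, adjusted p = 0.045), and its groups overlapped. The call of Mbp was lost without the young male numbered 4 (-0.64) or 5 (-0.45) and without the old male numbered 1 (-0.60) or 2 (-0.53), with adjusted p-values from 0.12 to 0.171 in these 4 fits. It was also lost with DESeq2's size factors (-0.64) and in the fit of all 30 libraries (-0.62). The call of Pmp22 was lost without the young male numbered 5 (-0.63, SE 0.20).

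The regulators Sox10 and Egr2 and the myelin genes Prx and Mag were not called. Sox10 differed by -0.28 (SE 0.43), Egr2 by -0.39 (SE 0.35), Prx by -0.30 (SE 0.21) and Mag by 0.22 (SE 0.37). Mag read 1.97, 3.32 and 2.08 CPM at 18 months and 2.46, 1.65 and 2.03 at 2 months. Egr2 read 1.31, 1.13 and 1.33 against 1.68, 1.72 and 1.42 without overlap, where 47.4% of genes did not overlap.

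Counts of list genes called, here and in the next paragraph, are read against 35.9% of all genes called and 18.8% called lower. Of the wider myelin genes, 3 of 13 tested fell and 0 rose. Among them Cnp, an enzyme of non-compact myelin, fell by 1.11 on the log2 scale (SE 0.21, adjusted p = 0.00583) and Cadm4, an adhesion molecule of the Schwann cell surface, by 0.58 (SE 0.15, adjusted p = 0.0153). Cnp read 32.2, 34.2 and 51.5 CPM at 18 months and 71.7, 102 and 74.5 at 2 months, without overlap. Of 11 Schwann lineage genes 0 were called, with a median log2 difference of -0.10. Of 7 neuron and axon genes 2 fell, the neurofilament gene Nefl (-1.94, SE 0.63, adjusted p = 0.04) and Uchl1 (-1.04, SE 0.23, adjusted p = 0.00972).

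Fat genes moved in the same comparison. Of 8 white adipocyte genes 6 fell, with a median log2 difference of -1.93, and of 5 brown adipocyte genes 3 fell, with a median of -2.17. The white adipocyte genes summed to 220 to 498 CPM in the old males and 1640 to 2250 in the young ones. Of 6 endothelial genes 3 fell and 0 rose, with a median of -0.56, and their sum was 250 to 390 CPM in the old males and 377 to 468 in the young ones. Of 6 fibroblast and perineurium genes 1 rose and 2 fell, with a median of -0.05, and their sum was 284 to 457 CPM in the old males and 341 to 567 in the young ones. Of the thyroid follicle genes 1 of 7 rose and 1 fell, with a median of 0.07, and of the skeletal muscle genes 0 of 13 were called. The part of fat tissue, endothelium or connective tissue in the fall of S100b, which fat cells express, or of the other 3 genes was not tested.

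The result also depended on which young males were taken. Against the 2-month males numbered 1 to 3, with 5.28% of genes called, S100b alone was called (-0.97, SE 0.19). Their S100b values were 87.8, 72.8 and 116 CPM, again all above the old males. Ncam1 differed by -0.53 (SE 0.29), Pmp22 by -0.53 (SE 0.20) and Mbp by 0.00 (SE 0.16). Against all 6 young males, with 8.41% of genes called, S100b alone was called again (-1.07, SE 0.18), with adjusted p-values of 0.0225 and 0.00934 for S100b in these fits. Mag was higher in every old male than in any young male numbered 1 to 3 (1.34, 1.06 and 1.57 CPM), a difference of 0.90 (SE 0.38) that was not called. Against numbers 1 to 3 the ages did not overlap in 4 of the 8 genes (Egr2, Mag, Prx and S100b) and in 29.7% of all genes.

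**Figure D5:**
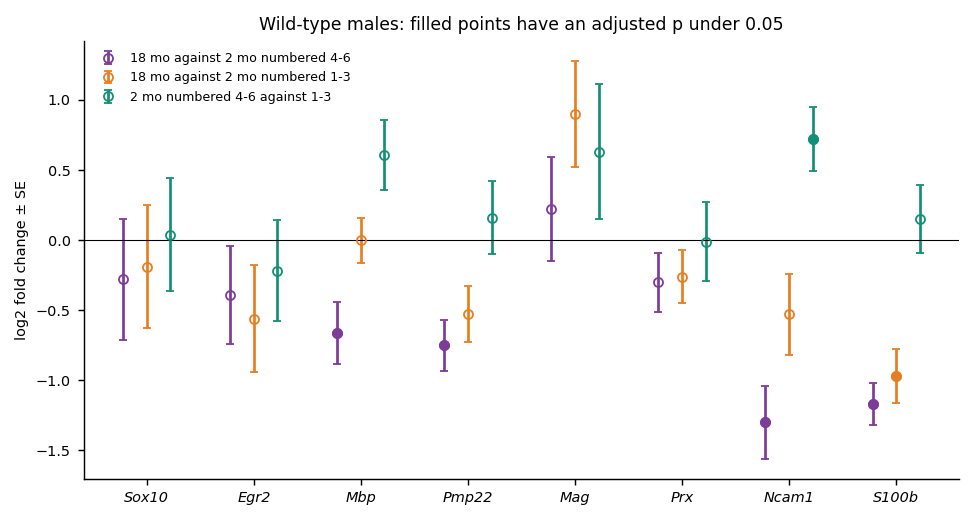
Log2 fold change with bars of 1 standard error in wild-type males: 18 months against 2-month males numbered 4 to 6 (purple), 18 months against those numbered 1 to 3 (orange), and numbers 4 to 6 against 1 to 3 (green). Filled points have an adjusted p under 0.05. S100b is filled in both ageing contrasts (-1.17 and -0.97), whereas Mbp moves from -0.66 to 0.00 and Ncam1 from -1.30 to -0.53.

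The 2 sets of 2-month wild-type males carry the same labels apart from their numbers, so their difference measures the sets and no condition. Of the 8 genes, Ncam1 was called higher in numbers 4 to 6, at 11.4, 14.4 and 10.6 CPM against 7.66, 6.0 and 8.44 (log2 difference 0.72, SE 0.23, adjusted p = 0.0273), where 21.6% of 18799 genes were called, 10.2% in that direction. The call was lost without the male numbered 2 (0.63, SE 0.26) or the one numbered 5 (0.60, SE 0.25). Mbp read 71.8, 84.4 and 49.5 against 43.0, 47.6 and 44.0, without overlap (0.61, SE 0.25, adjusted p = 0.079). The sets did not overlap in Mbp, Mag and Ncam1, where 38.8% of genes did not. S100b differed by 0.15 (SE 0.24) and Pmp22 by 0.16 (SE 0.26). Tissue lists differed between these sets too: 5 of 8 white and 4 of 5 brown adipocyte genes were called higher in numbers 4 to 6, and the skeletal muscle genes had a median log2 difference of 3.50 with 1 of 13 called. Ncam1 is also expressed in muscle, and its relation within groups to the muscle list was r = -0.37. Whether muscle or fat contributes to the difference in Ncam1 was not tested.

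From 2 to 8 months, none of the 8 genes was called in wild-type males, where 0.692% of 18493 genes were, or in wild-type females, where 0.254% were. At an unadjusted p under 0.05 the count was 1 in males, against 11.7% of all genes, and 1 in females, against 8.55%, and DESeq2 called 0 in each. In males the smallest p was that of Egr2, which read 0.651, 1.31 and 0.752 CPM at 8 months and 1.34, 2.44 and 1.86 at 2 months, without overlap (-1.03, SE 0.40, adjusted p = 0.261). In females it was that of S100b, which read 52.0, 41.1 and 45.4 CPM at 8 months and 53.0, 113 and 67.1 at 2 months, also without overlap (-0.73, SE 0.26, adjusted p = 0.343). Pmp22 and Mbp also did not overlap in males, in opposite directions. Pmp22 read 132, 113 and 133 CPM at 8 months and 167, 137 and 190 at 2 months (-0.38, SE 0.28, adjusted p = 0.694). Mbp read 48.8, 56.5 and 58.9 CPM at 8 months and 43.0, 47.6 and 44.0 at 2 months (0.30, SE 0.25, adjusted p = 0.748). Groups thus did not overlap for 3 of the 8 genes in males, where 21.2% of all genes did not, and for 1 of the 8 in females, where 12.4% did not.

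In the mean change from 2 to 8 months over both sexes and genotypes, Egr2 fell by 0.70 on the log2 scale (SE 0.20, adjusted p = 0.0118) and the other 7 genes were not called. Of all genes, 32.6% were called in this mean and 16.8% were called lower. The group mean was lower at 8 months in 3 of the 4 strata. Egr2 went from 2.19 to 0.888 CPM in FAD4T males, from 1.88 to 0.904 in wild-type males and from 2.15 to 1.3 in FAD4T females, whereas wild-type females went from 1.5 to 1.68. S100b differed by -0.33 (SE 0.13, adjusted p = 0.0566), Mbp by 0.29 (SE 0.12, adjusted p = 0.0718) and Sox10 by -0.41 (SE 0.19, adjusted p = 0.104). Egr2 was called in each of the 24 fits that left out 1 library. Without the 5 libraries of highest thymocyte level, of which 4 are 2-month FAD4T mice, it differed by -0.34 (SE 0.22) and was not called, in a fit that called 671 genes. That fit kept 1 FAD4T male and 1 FAD4T female of 2 months. Of 9 thymocyte genes 2 fell in the mean change, with a median log2 difference of -2.38. Of 7 immediate early genes, which like Egr2 respond within minutes to stimulation, 1 rose and 1 fell, with a median of -0.12. The relation of Egr2 to the thymocyte list within groups was r = 0.23, and -0.17 without the 2 most extreme libraries.

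The counts of list genes called in the same comparison are read against the 32.6% of all genes called. Of 14 wider myelin genes tested, 1 rose, Fa2h, a hydroxylase that makes myelin lipids (0.78, SE 0.20, adjusted p = 0.00628), and 1 fell. Of 12 Schwann lineage genes, 2 rose, Plekhb1 (0.49, SE 0.10, adjusted p = 0.00151) and L1cam (0.48, SE 0.11, adjusted p = 0.00299), and 1 fell, Scn7a, a sodium channel of non-myelinating Schwann cells (-0.43, SE 0.09, adjusted p = 0.00255). Liver genes were called higher in 6 of 6 cases, with a median log2 difference of 5.24, and the part of such tissue in the differences of myelin genes was not tested.

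Between wild-type males and females, none of the 8 genes was called at 2 months, where 0.0757% of genes were, or at 8 months, where 0.27% were. DESeq2 called 0 at either age. At 2 months the smallest p was that of Mbp, with a log2 difference of -0.77 (males minus females, SE 0.25, adjusted p = 0.254). The males read 43.0, 47.6 and 44.0 CPM, and the female numbered 1, at 44.3, lay within their range. None of the 8 genes had groups that did not overlap at 2 months, where 7.89% of genes did. At 8 months it was that of S100b. The males read 101, 66.6 and 76.4 CPM and the females 52.0, 41.1 and 45.4, without overlap, a log2 difference of 0.80 (SE 0.26, adjusted p = 0.483). Egr2 went the other way without overlap, at 0.651, 1.31 and 0.752 CPM in males and 2.2, 1.35 and 1.5 in females (-0.90, SE 0.40, adjusted p = 0.887). Groups did not overlap for 12.3% of genes at this age. FAD4T mice of 8 months, which share no library with that comparison, read 73.9, 76.3 and 128 CPM of S100b in males and 41.4, 44.6 and 36.8 in females. Their Egr2 values overlapped, at 0.692, 0.806 and 1.17 CPM in males and 1.1, 1.28 and 1.5 in females. The sexes were not tested against each other in FAD4T mice.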

How the data were processed

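Counts of read pairs per gene were deposited by the authors for 30 libraries. They were made with featureCounts 1.6.0 over exons of the Ensembl release 88 annotation of GRCm38, without a strand option, per the file headers, although the libraries keep the strand, per the labels' protocols. The submitters' processing notes also name cutadapt 1.9, HISAT2 2.0.4, StringTie 1.3.4d and GRCm39. A symbol was found for 50376 of 50686 identifiers, and the other 310 took at most 0.094% of a library's counts. Tests used R 4.3.3 and edgeR 4.0.16: TMM, filterByExpr over groups (minimum count 10), robust glmQLFit, glmQLFTest and Benjamini-Hochberg adjustment at 0.05. The FAD4T set (24 libraries, 18493 genes), the ageing pair (6 libraries, 16283 genes) and all 30 libraries (18799 genes, for the sets of 2-month males) were fitted apart. Simulated counts for FAD4T against wild type at 2 months in males (18043 genes) gave back 39% of 100 genes at 2-fold and 77% of 100 at 4-fold, and 6 of 122 calls were false. For the ageing pair (15958 genes) the shares were 40% and 95.9%, and 3 of 135 calls were false. All simulated libraries shared the same mean profile, with a spread set by level and no variation in neighbouring tissue. Changes were put only in genes with a mean count over 10, so these shares need not hold for the real tests. Each comparison names its called genes, or the gene of the smallest p, any whose groups did not overlap, and those discussed for their level. For likeness, the 3 genes of highest rho with a mean of at least 1 CPM were taken. The 8 genes, the gene lists and the alternatives (DESeq2 1.42.0, its size factors, no filter, other groupings, leaving out libraries, a replicate block) were chosen with earlier results of these data known. Some genes of the lists enter the counts but are not reported here by name.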

Additional observations from a re-analysis of the deposited data

How the results depend on the processing

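Over 16 comparisons, 254 alternatives were run on the count of the 8 genes called, and the count moved by over 1.5 times in 22 of them, all within 4 comparisons. For 18 against 2 months the count of 4 was 1 with the young males numbered 1 to 3, 1 with all 6 young males and 2 to 4 when 1 library was left out. For the mean change from 2 to 8 months the count of 1 was 2 with DESeq2 and 2 with all 30 libraries in 1 fit (S100b besides Egr2), 0 without the 5 libraries of highest thymocyte level and 1 to 2 when 1 library was left out. For the sets of 2-month males the count of 1 was 2 with DESeq2 and 2 with the compared groups alone (Mbp besides Ncam1), 0 with no filter on low counts and 0 to 2 when 1 library was left out. For FAD4T females of 2 months it was 0 to 1 when 1 library was left out. Among single genes, Prx in FAD4T females of 8 months went from 0.43 to between -0.06 (without the FAD4T female numbered 3) and 0.69 when 1 library was left out, and Mbp in ageing from -0.66 to 0.00 with the young males numbered 1 to 3. The cause was not tested. Over the 24 pairs of libraries that share a number, r of their deviations ran from -0.56 to 0.6 and was over 0.1 in 12. FAD4T against wild type in males of 8 months was the comparison where all 3 pairs were over 0.1 (0.44, 0.44 and 0.55), and there, with the replicate block, Prx was at -0.40 (SE 0.29, adjusted p = 1) and 0 of the 8 genes were called, as without it. With the number as a replicate block the count stayed at 1 (Egr2) in the mean change from 2 to 8 months and at 0 in the other 13 comparisons it was run on. The ageing pair and the sets of 2-month males share no numbers, so no block was fitted there. Depth limits Sox10, Egr2 and Mag the most, with medians of 45, 23 and 29 counts a library.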
